A study of Mus musculus with 8 samples.

Results

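The antioxidant defence of the liver was followed through 40 genes chosen by name: NRF2 and its inhibitor KEAP1 (2 genes), a short list of 10 NRF2 targets, and 28 other antioxidant, glutathione and thioredoxin genes that are here called constitutive. All 40 were found among the 56884 genes counted in each library, and 39 of them passed the filter on low counts. The rule that lists them uses names alone, although it was written with earlier results of these data known. The samples were livers of female C57BL/6J mice, 18 months old, that had become obese on a high-fat diet. Lipids supplied 45% of the energy of that diet, which began at 2 months of age and lasted 4 months before grouping. The DIO group (n = 3, replicates 1, 4 and 5) continued on that diet to 18 months, whereas in the DIO + DHA group (n = 5, replicates 1, 2, 4, 5 and 6) a fish oil concentrate with 683.4 mg/g of DHA took the place of 15% (wt/wt) of the dietary lipids. The concentrate also held EPA and other n-3 fatty acids, and the paper does not exclude a small contribution from them. Where a level is called higher or lower with DHA, the whole concentrate is meant. The concentrate held mixed tocopherols, and the diet of the DIO group was given an equal amount over the same period, so both groups received this added antioxidant. Both groups therefore shared age, sex, strain and obesity, and no lean or young liver was compared here. The libraries, 1 per mouse, were enriched in 3′ ends and held 1723800 to 5690347 counts, DIO replicate 1 being the shallowest. Expression is in CPM, a gene's count rescaled to the TMM-adjusted size of its library, and levels of different genes are not compared, since the counts were not divided by length.

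NRF2 (gene Nfe2l2) is a transcription factor that KEAP1 holds in the cytoplasm and hands over to the CUL3 ubiquitin ligase for degradation. When oxidants or electrophiles modify cysteines of KEAP1, NRF2 accumulates, pairs with a small MAF protein and binds antioxidant response elements near genes for glutathione synthesis, quinone reduction, haem breakdown and the thioredoxin system. BACH1 is a repressor that competes for the same elements. Because NRF2 is controlled mostly as a protein, the level of its transcript is not a measure of its activity.

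Of the 39 members tested, 11 (28.2%) passed an adjusted p of 0.05 in edgeR's quasi-likelihood test, 5 of them higher with DHA and 6 lower. Over all 12412 genes tested the share was 15.2%, with 7.89% higher and 7.28% lower. The count of members called fell to 5 without DIO replicate 4 (1 higher and 4 lower) and to 5 without DIO replicate 5 (3 higher and 2 lower). The calls over all genes also fell without DIO replicate 5, to 1432 of 12866 tested, beside 1883 of 12412 with all libraries. In limma-voom 10 of 39 members were called at an adjusted p under 0.05. The shares over all genes for that threshold and for DESeq2 are not given here, so counts in those settings lack a background. With B above 0 in limma-voom, a stricter criterion, 1 of 39 members was called, beside 6.93% of all genes. So, with all 8 libraries, the members' share was above that of all genes at edgeR's adjusted p and below it at B above 0. The members rose by 0.27 to 0.44 on the log2 scale where they rose. Among those that fell, Hmox1 changed by -1.23 and the other 5 by -0.27 to -0.22. The median log2 fold change of the members was -0.03, beside 0.00 over all genes, and the median size of a change was 0.14, beside 0.22 over all genes. So most members moved little, in either direction, and Hmox1 was the exception in size. Expression level, on which both the share called and the size of a change can depend, was not matched between the members and all genes.

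The NRF2 targets were compared with the constitutive genes. Among the 9 NRF2 targets tested, 4 (44.4%) were called, beside 15.2% of all genes. Gsr and Srxn1 rose, and Gclm and Hmox1 fell. Their median log2 fold change was -0.12. The 28 constitutive genes had 6 calls (21.4%), a share closer to the 15.2% over all genes, and a median of -0.02. Gpx3 and Aldh3a2 were higher, and Gpx1, Aldh2, Akr1a1 and Msrb1 were lower. Without DIO replicate 5 the 4 lower calls were lost and 2 calls, both higher, were left, in a fit that called 1432 of 12866 genes. In limma-voom 6 constitutive genes passed an adjusted p under 0.05 and 8 had an unadjusted p under 0.05. With B above 0 in limma-voom 0 were called, beside 6.93% of all genes. A wider list of 14 tested NRF2 targets, with Gss, Prdx6, Blvrb, Mgst1 and Aifm2 added, kept 4 calls and had a median of -0.02. Both NRF2 targets that rose, Gsr and Srxn1, lost their calls with DESeq2 (adjusted p = 0.105 and 0.0864), with B above 0 in limma-voom and without DIO replicate 4, where 0 targets were called higher and 2, 1 and 1 lower. The p-values measure the spread between mice, 1 library each.

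**Figure D1:**
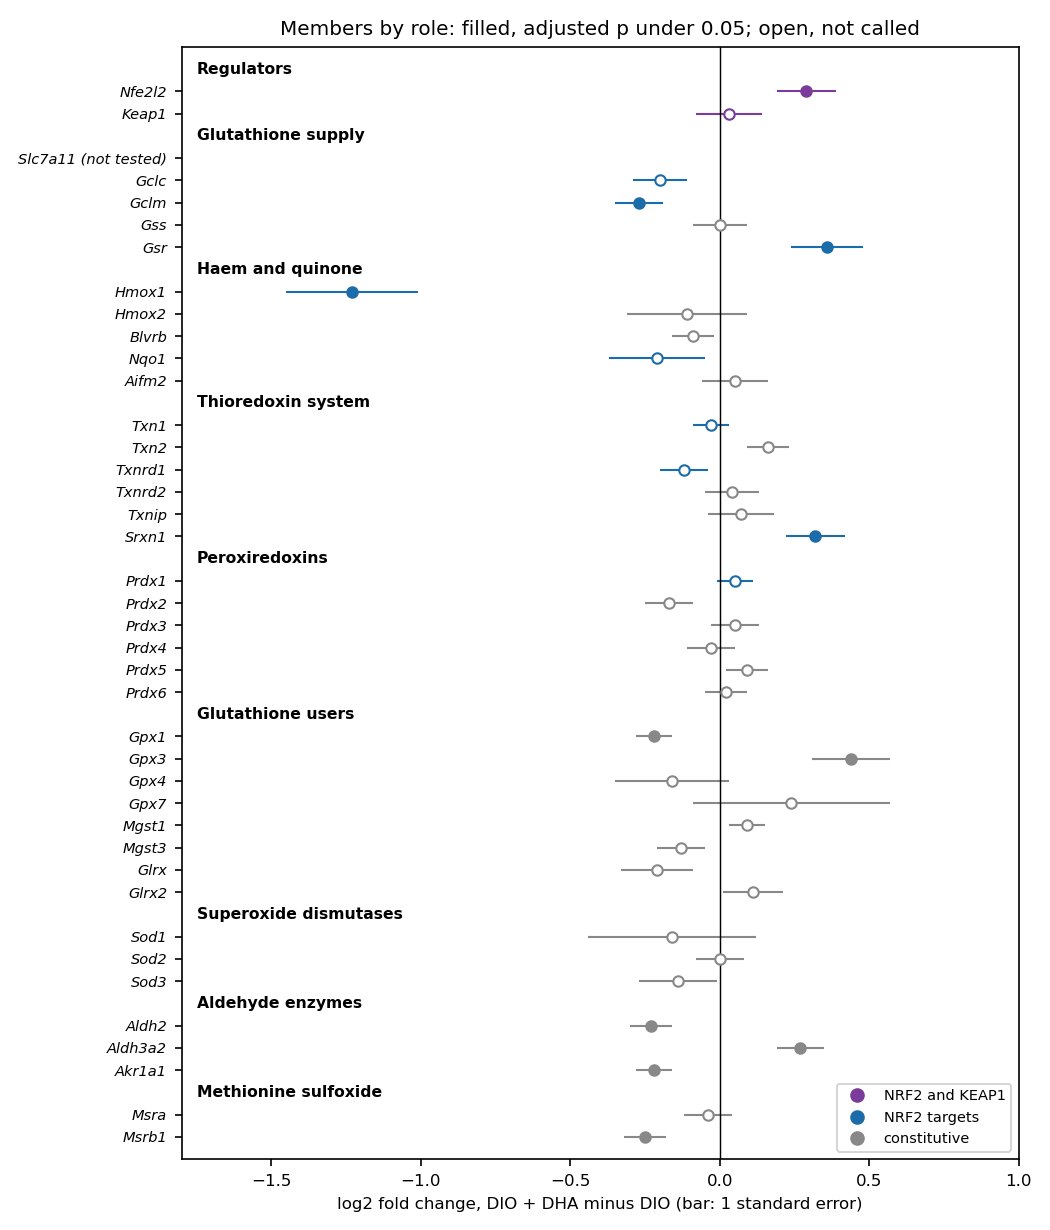
Log2 fold change (x axis, DIO + DHA minus DIO) of the 39 tested members by role (y axis), with 1 standard error as the bar. Filled points passed the adjusted p and open points did not. Hmox1 stands alone at -1.23, and all other members lie between -0.27 and 0.44.

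The sequence of an antioxidant response element core was looked for at the start sites, to show which members carry these letters there. The core was written as TGACNNNGC and searched on both strands, from 250 bases before to 50 bases after the start of the canonical transcript in GENCODE release 39 (GRCm39). It was present in 8 of the 40 members (20.0%), 4 of the 10 NRF2 targets and 4 of the 28 constitutive genes (14.3%), beside 12.5% of 21757 protein-coding promoters of the same length. In a window reaching 1000 bases upstream the shares were 42.5%, 60.0% and 35.7%, beside 30.4%. The matches of NRF2 and its targets in that wider window follow, each as 25 bases in the direction of the gene with the core in capitals, which reads as its reverse complement where it lies on the opposite strand. Distances are counted from the canonical start, which for Gsr and Txnrd1 lies downstream of the start of the gene as counted, so the second Gsr match and both Txnrd1 matches are inside the counted gene.

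Nfe2l2 (chr2:75535231-75535255, minus strand, 262 bases upstream): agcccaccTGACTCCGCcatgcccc
Slc7a11 (chr3:50398917-50398941, minus strand, 870 bases upstream): aaaaatatGCCCTGTCAtctccttc
Gclm (chr3:122039064-122039088, plus strand, 54 bases upstream): tcccgggcGCACCGTCAactctcac
Gsr (chr8:34142514-34142538, plus strand, 744 bases upstream): gtttcttaTGACTTAGCagtattta
Gsr (chr8:34142742-34142766, plus strand, 516 bases upstream): agaaagccGCTTGGTCActgtgacc
Txnrd1 (chr10:82694634-82694658, plus strand, 371 bases upstream): actatttgGCAGGGTCAcagccagt
Txnrd1 (chr10:82694940-82694964, plus strand, 65 bases upstream): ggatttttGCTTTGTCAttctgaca
Srxn1 (chr2:151947464-151947488, plus strand, 28 bases downstream): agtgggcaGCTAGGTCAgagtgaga
Prdx1 (chr4:116542655-116542679, plus strand, 78 bases upstream): gggaaagcGCTGAGTCAtcccccgt

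The Prdx1 match, TGACTCAGC on its own strand, also holds the AP-1 letters TGACTCA, so both motifs overlap there. Genes with a match did not share a direction: among those printed here that were called, Nfe2l2, Gsr and Srxn1 rose and Gclm fell, while Txnrd1 and Prdx1 were not called. No match was found in either window for Hmox1, Nqo1, Gclc, Txn1 or Keap1, which says only that these letters are not in these windows. Of the called constitutive genes, Aldh3a2, which rose, had 2 matches in the wider window. A match is a description and not evidence of binding.

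The transcript of NRF2 itself was slightly higher with DHA. Nfe2l2 (chr2:75505857-75534985) was at 46.1, 43.1 and 42.4 CPM in DIO replicates 1, 4 and 5, and at 52.8, 60.3, 48.9, 48.2 and 55.5 CPM in DIO + DHA replicates 1, 2, 4, 5 and 6. Values below are given in this order of libraries. All 5 DIO + DHA libraries lay above the DIO libraries, and the log2 fold change was 0.29 ± 0.10 (SE, edgeR adjusted p = 0.0472). This call is close to the threshold: it held in 2 of 8 fits without 1 library and in 3 of 9 other settings. It was lost with DESeq2 (adjusted p = 0.126) and with limma-voom (adjusted p = 0.0562). Keap1, the inhibitor, was at 36.6, 42.0 and 46.3 CPM in the DIO group and at 42.6, 37.9, 50.3, 44.0 and 42.6 CPM in the DIO + DHA group. The groups overlapped, with a log2 fold change of 0.03 ± 0.11 (edgeR adjusted p = 0.917).

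Among the genes of glutathione supply, the modifier subunit of the rate-limiting enzyme fell and the recycling enzyme rose. Gclm (chr3:122039206-122064381), the modifier subunit of glutamate-cysteine ligase, was at 161, 168 and 163 CPM in the DIO group and at 142, 131, 138, 132 and 139 CPM in the DIO + DHA group. The groups were well separated, and the fitted level fell by 17.0% (log2 fold change -0.27 ± 0.08, edgeR adjusted p = 0.00808), and the call held in 7 of 8 fits without 1 library. Its catalytic partner Gclc was at 95.6, 91.1 and 103 CPM against 76.8, 90.8, 88.8, 83.1 and 84.7 CPM. Here the highest DIO + DHA library lay just under the lowest DIO library, and the difference of -0.20 ± 0.09 did not pass the test (edgeR adjusted p = 0.125).

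Gsr (chr8:34142551-34188191), glutathione reductase, which returns oxidised glutathione to the reduced form with NADPH, was at 37.7, 28.5 and 34.8 CPM in the DIO group and at 40.1, 51.6, 37.1, 42.9 and 39.5 CPM in the DIO + DHA group. The highest DIO value overlapped the lowest DIO + DHA value, and the log2 fold change was 0.36 ± 0.12 (edgeR adjusted p = 0.0294), kept in 5 of 8 fits without 1 library. Gss, glutathione synthetase, averaged 71.1 ± 7.86 CPM in the DIO group and 72.2 ± 2.57 CPM in the DIO + DHA group (SD), with a log2 fold change of 0.00 ± 0.09. Slc7a11, the cystine transporter and a classical NRF2 target in many cell types, was hardly detected. It had 0 counts in the 12938619 of the DIO group, which allows a level of up to 0.232 CPM, and 1 count each in DIO + DHA replicates 2 and 5 (0.335 and 0.234 CPM), with 0 in the other 3 DIO + DHA libraries. It was not tested.

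**Figure D2:**
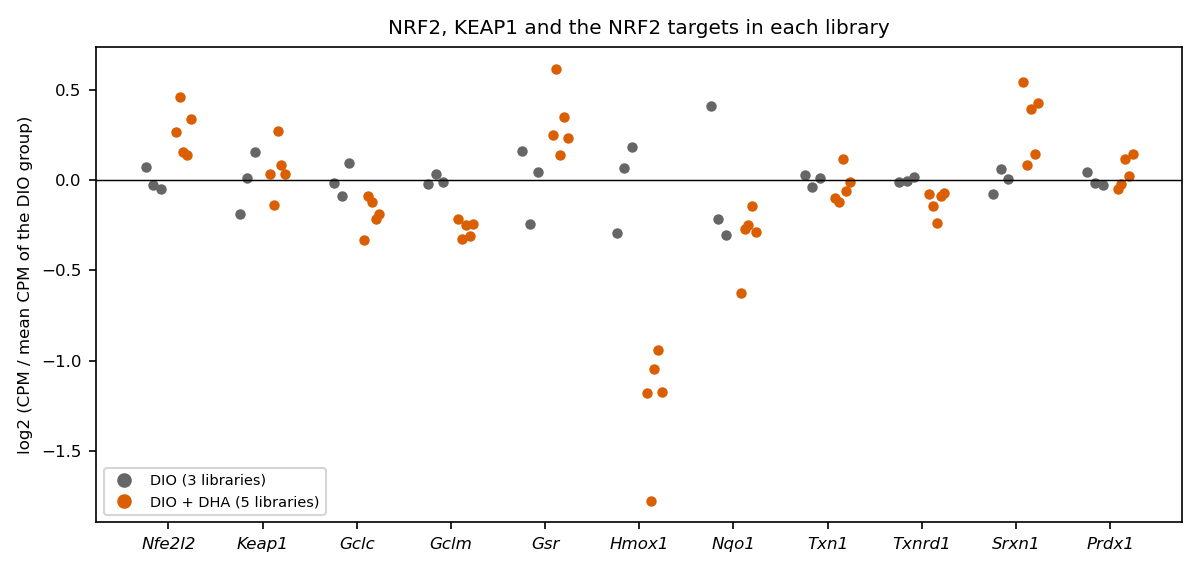
Level of NRF2, KEAP1 and the 9 tested NRF2 targets in each library, as the log2 ratio (y axis) of its CPM to the mean CPM of the DIO group. Grey points are the 3 DIO libraries and orange points the 5 DIO + DHA libraries. Nfe2l2 and Srxn1 lie above the DIO libraries in all 5, and Gclc, Gclm, Hmox1 and Txnrd1 lie below them in all 5.

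Hmox1 showed the largest change of the members. Haem oxygenase 1 (chr8:75820249-75827217) is the inducible enzyme that opens haem to biliverdin, iron and carbon monoxide, and it is abundant in macrophages that take up red cells. It was at 8.44, 10.8 and 11.7 CPM in the DIO group and at 4.56, 3.02, 4.99, 5.39 and 4.59 CPM in the DIO + DHA group, from 231 counts in all. Every DIO + DHA library lay below every DIO library, the fitted level fell by 57.4% (log2 fold change -1.23 ± 0.22, edgeR adjusted p = 2.1e-05), and the call was kept in 8 of 8 fits without 1 library. It was also the only member past the criterion of limma-voom with B above 0, which 6.93% of all genes met.

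Macrophage transcripts moved with Hmox1. The summed level of 16 macrophage genes was 1051 to 1140.4 CPM in the DIO group and 588 to 622 CPM in the DIO + DHA group, a ratio of 0.545 (exact two-sided permutation test, p = 0.0179, the smallest that 3 against 5 libraries allow), and 13 of the 16 were lower and Marco was higher. No gene of that list was at 0 in either group. The genes of the list did not change alike: log2 fold changes ran from -1.36 (Cd68) to 0.66 (Marco), and Timd4 (0.19) and Cd163 (-0.27) were not called. In bulk liver, fewer macrophages and altered RNA levels of these genes per macrophage cannot be told apart. Set against this sum, Hmox1 was at 7.65, 10.3 and 10.3 per 1000 macrophage CPM in the DIO group and at 7.57, 5.09, 8.5, 9.15 and 7.37 in the DIO + DHA group. These ratios overlapped between the groups, with a difference of -0.33 on the log2 scale (exact two-sided permutation test, p = 0.161). With 5 Kupffer cell markers as the denominator the difference was -0.46 (exact permutation p = 0.0536). For the other 5 members that fell, the ratio to the macrophage sum rose by 0.61 to 0.66 on the log2 scale. This follows from decreases smaller than that of the sum, and does not show which cells express these members. The part of macrophages in the Hmox1 difference was not tested further.

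**Figure D3:**
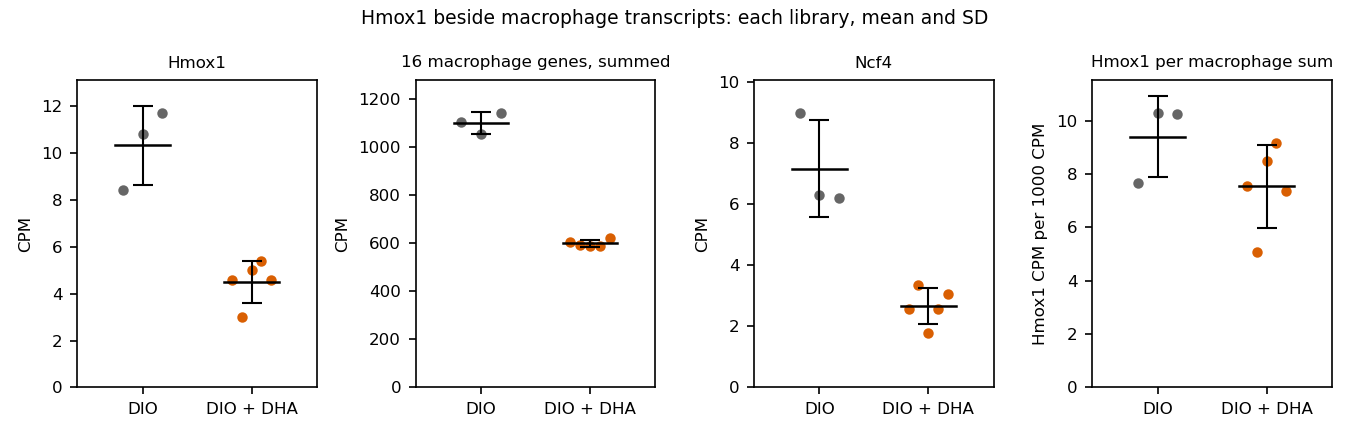
CPM (y axes, each from 0) of Hmox1, of 16 summed macrophage genes and of Ncf4, a subunit of the phagocyte NADPH oxidase, and Hmox1 per 1000 CPM of the macrophage sum, in each library with the group mean and SD. The first 3 panels separate the groups, with Hmox1 at 8.44 to 11.7 against 3.02 to 5.39 CPM, and the ratio in the last panel overlaps.

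The other haem and quinone genes were not called, so 1 of 5 was called (20.0%), beside 15.2% of all genes. Nqo1, the NAD(P)H quinone reductase most often used to report NRF2 activity, was at 24.8, 16.05 and 15.1 CPM in the DIO group and at 12.1, 15.4, 15.7, 16.9 and 15.3 CPM in the DIO + DHA group. Only DIO replicate 1 stood above the other libraries, and the log2 fold change was -0.21 ± 0.16 (edgeR adjusted p = 0.471). The constitutive Hmox2 changed by -0.11 ± 0.20, the biliverdin reductase Blvrb by -0.09 ± 0.07 and Aifm2, which regenerates reduced coenzyme Q, by 0.05 ± 0.11. Of the Hmox2 exon bases, 40.2% are shared with an antisense gene and reads there cannot be assigned.

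In the thioredoxin system 1 of 6 genes was called, sulfiredoxin, a share (16.7%) near the 15.2% over all genes. Srxn1 (chr2:151947436-151953296), which repairs over-oxidised peroxiredoxins, was at 43.9, 48.3 and 46.5 CPM in the DIO group and at 67.2, 48.9, 60.7, 51.1 and 62.2 CPM in the DIO + DHA group. The lowest DIO + DHA library was barely above the highest DIO library, the log2 fold change was 0.32 ± 0.10 (edgeR adjusted p = 0.025), and the call was kept in 2 of 8 fits without 1 library. Thioredoxin 1 (Txn1) was at 1326, 1265 and 1312 CPM against 1212, 1194, 1408, 1249 and 1292 CPM.

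These Txn1 levels overlapped, and the difference was -0.03 ± 0.06 on the log2 scale (edgeR adjusted p = 0.811). Txnrd1, the cytosolic thioredoxin reductase, was at 89.5, 89.8 and 91.0 CPM against 85.5, 81.4, 76.4, 84.8 and 85.8 CPM, lower in every DIO + DHA library by a small amount (-0.12 ± 0.08, edgeR adjusted p = 0.414). Mitochondrial thioredoxin (Txn2) lay above the DIO range in all 5 DIO + DHA libraries without passing the test (0.16 ± 0.07, edgeR adjusted p = 0.126). Mitochondrial Txnrd2 changed by 0.04 ± 0.09 and Txnip, the thioredoxin-binding protein, by 0.07 ± 0.11.

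None of the 6 peroxiredoxins was called by edgeR, beside 15.2% of all genes, and 1 peroxiredoxin, Prdx2, had an unadjusted p under 0.05. DESeq2 called 0, and limma-voom with B above 0, which 6.93% of all genes met, called 0. Prdx1, an NRF2 target that removes peroxide in the cytosol, was at 2195, 2108 and 2090.1 CPM in the DIO group and at 2056, 2098, 2313, 2167 and 2357 CPM in the DIO + DHA group. The groups overlapped throughout (0.05 ± 0.06, edgeR adjusted p = 0.724). The other peroxiredoxins changed by -0.17 (Prdx2, adjusted p = 0.169) to 0.09 (Prdx5). In Prdx1, 24.9% of 80-base stretches of the counted exons have a copy elsewhere in the genome with at most 1 mismatch, so part of its reads may not align uniquely.

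Of the 8 tested genes of enzymes that use glutathione, 2 were called by edgeR, beside 15.2% of all genes. Both were peroxidases, and they moved in opposite directions. Gpx1 (chr9:108216102-108217542), the cytosolic selenium-containing peroxidase, was at 2461, 2609.5 and 2753 CPM in the DIO group and at 2281, 2039.7, 2257, 2147 and 2468 CPM in the DIO + DHA group. DIO + DHA replicate 6 overlapped the lowest DIO library, and the fitted level fell by 14.2% (log2 fold change -0.22 ± 0.06, edgeR adjusted p = 0.00863). An antisense gene shares 84.0% of the Gpx1 exon bases, and reads from that stretch were not counted for either gene, so the value rests on the remaining stretch. Gpx3 (chr11:54793279-54801203), the secreted peroxidase of plasma, was at 18.6, 25.4 and 27.7 CPM against 34.9, 38.5, 26.8, 34.2 and 34.7 CPM. Only DIO + DHA replicate 4 fell within the DIO range, and the log2 fold change was 0.44 ± 0.13 (edgeR adjusted p = 0.011).

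Gpx4, which reduces lipid hydroperoxides in membranes, was not called (-0.16 ± 0.19), and its counts are uncertain. Its mean was 22.3 ± 6.20 CPM (SD) with DIO and 19.7 ± 4.41 CPM with DIO + DHA, whereas its pseudogene Gpx4-ps2 averaged 155 ± 28.6 and 149.985 ± 9.10 CPM. In Gpx4, 32.4% of the 80-base stretches have a near-identical copy elsewhere. With both counts summed, an alternative added after the data were seen, the level was 178 ± 24.1 and 169.7 ± 5.96 CPM, a log2 fold change of -0.08 ± 0.08 (edgeR adjusted p = 0.571). Gpx7, of the endoplasmic reticulum, stayed at 2.14 to 6.32 CPM. The microsomal transferases Mgst1 and Mgst3 changed by 0.09 ± 0.06 and -0.13 ± 0.08, and the glutaredoxins Glrx and Glrx2 by -0.21 ± 0.12 and 0.11 ± 0.10.

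None of the 3 superoxide dismutases was called by edgeR in the fit of all 8 libraries, beside 15.2% of all genes. There 0 of the 3 had an unadjusted p under 0.05, and DESeq2 and limma-voom also called 0. Sod1, the cytosolic copper-zinc enzyme (chr16:90017642-90023217), was at 1252, 586 and 593 CPM in the DIO group and at 709, 726, 613, 719 and 794 CPM in the DIO + DHA group. DIO replicate 1 was 2.12 times the mean of the other DIO libraries, and those lay below all 5 DIO + DHA libraries. With it the log2 fold change was -0.16 ± 0.28 (edgeR adjusted p = 0.796), and without it 0.28 ± 0.08 (edgeR adjusted p = 0.00655), so the direction rests on 1 library. Of the 1210 genes that averaged 100 CPM or more, Sod1 was the only gene in which DIO replicate 1 exceeded every other library by more than 1.5-fold. Sod2 of mitochondria averaged 211 ± 12.3 and 211 ± 15.0 CPM, but 57.4% of its 80-base stretches have a near-identical copy elsewhere. Extracellular Sod3 averaged 26.1 ± 1.58 and 23.6 ± 1.5 CPM (SD, n = 3 and n = 5).

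**Figure D4:**
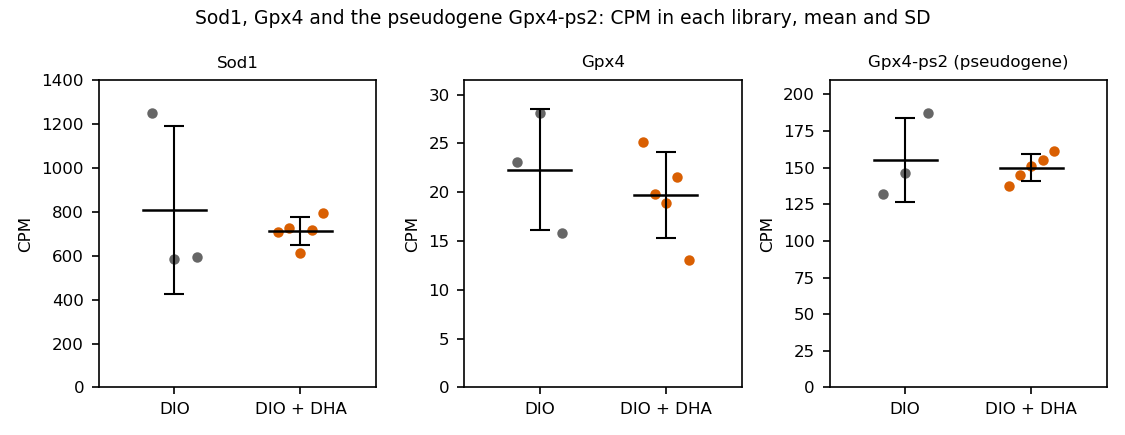
CPM (y axes, each from 0) of Sod1, Gpx4 and the pseudogene Gpx4-ps2 in each library, with the group mean and SD. In the Sod1 panel DIO replicate 1 lies at 1252 CPM and the other 7 libraries between 586 and 794 CPM.

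All 3 enzymes of aldehyde removal were called by edgeR, beside 15.2% of all genes. DESeq2 called 2 of the 3, without Aldh2 (adjusted p = 0.052). With limma-voom 3 were called at an adjusted p under 0.05 and 0 with B above 0. Aldh2 (chr5:121704090-121731887), the mitochondrial aldehyde dehydrogenase, was at 1132, 1242 and 1427 CPM in the DIO group and at 1012, 983, 1110.3, 1149 and 1151 CPM in the DIO + DHA group. The groups overlapped slightly, and the difference was -0.23 ± 0.07 (edgeR adjusted p = 0.0121), which shrank to -0.13 ± 0.07 without DIO replicate 5 (edgeR adjusted p = 0.3). Aldh3a2 (chr11:61114243-61158290), which oxidises long-chain fatty aldehydes, moved the other way.

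It was at 172, 180.1 and 208 CPM against 233, 244, 214, 204 and 234 CPM, with DIO + DHA replicate 5 inside the DIO range and a log2 fold change of 0.27 ± 0.08 (edgeR adjusted p = 0.0109). Akr1a1 (chr4:116493707-116508877), an aldo-keto reductase, was at 639.7, 649 and 703 CPM against 572, 551, 569.8, 569 and 592 CPM. These groups were separate, with a difference of -0.22 ± 0.06 (edgeR adjusted p = 0.0116). The methionine sulfoxide reductase Msrb1 (chr17:24955616-24961752), a selenoprotein that repairs oxidised methionine, was at 589.6, 605 and 646 CPM against 523, 514, 512, 457 and 579.6 CPM. It was lower in every DIO + DHA library (-0.25 ± 0.07, edgeR adjusted p = 0.00685), whereas Msra, which repairs the other stereoisomer, did not pass the test (-0.04 ± 0.08).

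Among the fits that left out 1 library, Gpx3, Akr1a1 and Msrb1 were called in 7 of 8 and Gpx1, Aldh2 and Aldh3a2 in 6 of 8. All kept their direction. The calls were lost without DIO replicate 5 for Akr1a1 and Msrb1 (edgeR adjusted p = 0.136 and 0.0758), without DIO replicate 1 for Gpx3 (0.0581) and without DIO replicate 4 for Gclm (0.0738). Gpx1 was lost without DIO replicate 4 or 5 (0.0501 and 0.0871), Aldh2 without DIO replicate 5 or DIO + DHA replicate 1 (0.3 and 0.0526), Aldh3a2 without DIO replicate 1 or 4 (0.0655 and 0.0792) and Gsr without DIO replicate 4 or DIO + DHA replicate 2 or 5 (0.307, 0.122 and 0.0535). Nfe2l2 held only without DIO replicate 1 or DIO + DHA replicate 5, and Srxn1 only without DIO + DHA replicate 2 or 5, with adjusted p of 0.0505 to 0.153 in the other fits of these 2 genes. The canonical transcript of GENCODE release 39 ends beyond the counted gene by 1118 bases for Nfe2l2, 680 for Gclm, 4391 for Srxn1 and 1221 for Gpx3. Among members not called it does so by 4440 bases for Sod1, 5210 for Hmox2, 2664 for Msra, 1022 for Nqo1, 379 for Prdx1 and 280 for Mgst3. Reads from such an end, in libraries enriched for 3′ ends, were not counted for these genes. Apart from the test, the libraries of the groups did not overlap for 10 of the 39 members, 3 above and 7 below, beside 18.4% of all genes. The 28 members that were tested and not called had log2 fold changes of -0.21 to 0.24, with standard errors of 0.06 to 0.33.

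**Figure D5:**
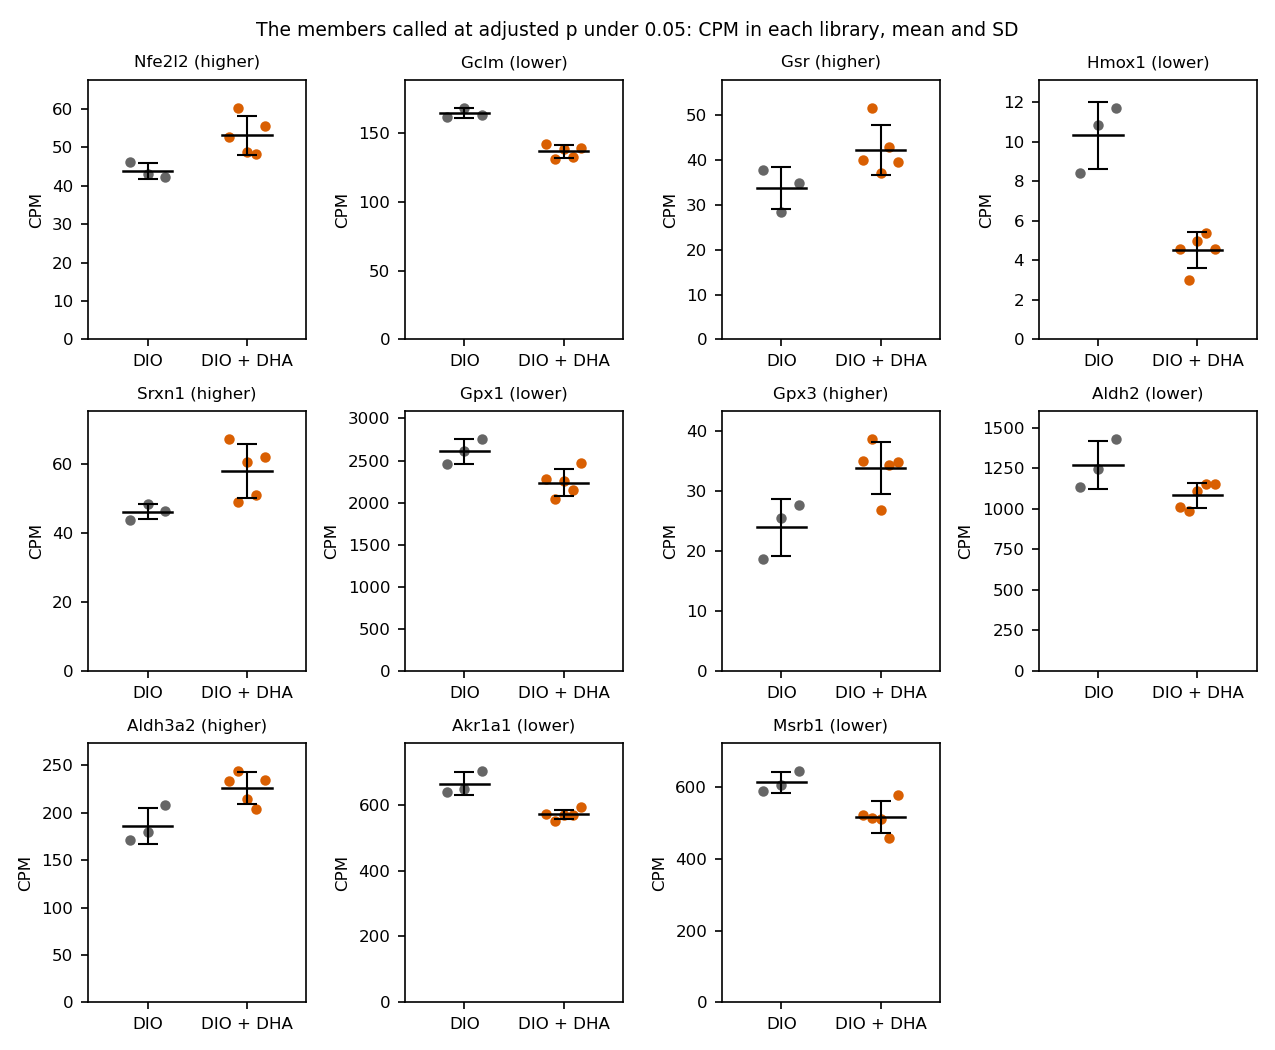
CPM (y axes, each from 0) of the 11 called members in each library, with the group mean and SD. The Hmox1 groups are far apart, whereas the Gsr, Gpx1, Gpx3, Aldh2 and Aldh3a2 groups overlap by at least 1 library.

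The other genes of the NRF2 pathway, from a list that holds no member, had 11 calls among 33 tested, 2 higher and 9 lower, beside 15.2% called over all genes (7.89% higher and 7.28% lower). Their median log2 fold change was -0.14. The count was 7 without DIO replicate 4, 7 without DIO + DHA replicate 1 and 6 with DESeq2. Osgin1, an oxidative stress response gene, was at 107, 106 and 110.02 CPM in the DIO group and at 196, 159.9, 173, 173 and 196 CPM in the DIO + DHA group. It was separate between the groups and rose by 0.74 ± 0.08 (edgeR adjusted p = 1.3e-10). Gstm4 rose by 0.32 ± 0.10 (edgeR adjusted p = 0.0262).

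Among called genes of that list averaging 1 CPM or more, the 3 largest decreases were in glutathione transferases, which conjugate glutathione to electrophiles. Gstm3 was at 35.4, 36.6 and 30.3 CPM against 16.7, 15.1, 16.4, 16.9 and 15.3 CPM, a log2 fold change of -1.07 ± 0.13 (edgeR adjusted p = 2.6e-09). Gsta3 fell from 856 ± 33.1 to 549.9 ± 56.3 CPM, by 0.64 on the log2 scale (edgeR adjusted p = 6.7e-11), and Gsta2 by 0.53 (edgeR adjusted p = 0.0187). Members of these families are similar in sequence, and unique alignment may split their reads. The small MAF protein gene Mafg, whose product pairs with NRF2, fell by 0.52 ± 0.10 on the log2 scale (edgeR adjusted p = 0.00011), and the repressor gene Bach1 by 0.49 ± 0.16 (edgeR adjusted p = 0.0307). The other small MAF genes were not called: Mafk was at 0.70 ± 0.34 (edgeR adjusted p = 0.187) and Maff at -0.58 ± 0.28 (edgeR adjusted p = 0.181). Bach1 and the small MAF genes are named for their role, after their values had been seen.

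Of 33 other tested antioxidant genes, 9 (27.3%) were called, 3 higher and 6 lower, beside the same 15.2%, with a median of -0.05. The count fell to 5 without DIO + DHA replicate 1 (1 higher and 4 lower), to 5 with DESeq2 and to 3 with B above 0 in limma-voom. Chac1, which breaks down glutathione, was at 5.06, 9.56 and 8.87 CPM against 2.18, 2.68, 2.85, 3.28 and 2.62 CPM and fell by 1.64 on the log2 scale (edgeR adjusted p = 2.2e-06). The sulfide oxidase Sqor fell by 0.44 and Aldh1a1 by 0.35. Msrb2, Aldh9a1 and Gsto1 rose by 0.45, 0.30 and 0.24. Catalase (Cat) lay lower in all 5 DIO + DHA libraries without passing the test (-0.14 ± 0.06, edgeR adjusted p = 0.13). Nnt, which regenerates mitochondrial NADPH and is known to be deleted in part in C57BL/6J mice, was at 0.902 to 4.99 CPM.

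Of 7 tested genes for sources of oxidants, 6 were called lower and 0 higher, beside 15.2% of all genes called and 7.28% called lower. Their median was -0.68, and the gene not called was Nox4. Ncf4 of the phagocyte NADPH oxidase was at 9.0, 6.31 and 6.21 CPM against 2.58, 3.35, 1.78, 2.58 and 3.06 CPM (-1.32 ± 0.28, edgeR adjusted p = 0.00028). Every DIO + DHA library lay below the DIO libraries. Ncf1 and the catalytic subunit gene Cybb fell by 1.14 and 1.13 on the log2 scale. These subunits are phagocyte genes and stood beside the lower macrophage sum described for Hmox1. Their dependence on it was not tested. Xdh, which is not a subunit of that oxidase, was also lower (-0.68 ± 0.09, edgeR adjusted p = 7.8e-08), with the groups separate.

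Markers of other cells were summed in the same way. A list of 10 hepatocyte genes summed to 93673 to 100120.0 CPM in the DIO group and to 94023 to 108206 CPM in the DIO + DHA group. Genes that define liver were thus abundant in all 8 libraries. Of these 10 genes, 5 were called, 2 higher (Apoa1 and Tat) and 3 lower (Hnf4a, Trf and Serpina1c). Skeletal muscle genes, 15 of 15 higher, summed to 33.9 to 37.9 CPM in the DIO group and 1342 to 1444 CPM in the DIO + DHA group, and squamous epithelium genes to 0.00 to 1.26 and 51.3 to 55.0 CPM, with 8 of 11 at 0 in the DIO group. Endothelial genes were at 156 to 172 and 109 to 135 CPM (exact two-sided permutation test, p = 0.0179), and 2 of 6 were called, both lower. Stab2 was at -0.32 on the log2 scale (edgeR adjusted p = 0.0848), and Pecam1, Cdh5 and Kdr were at 0.03, 0.19 and 0.04. Stellate cell genes were at 234 to 249 and 216 to 231 CPM (exact two-sided permutation test, p = 0.0179). Of these 6 genes 1 was lower and 1 higher, the latter being Des (3.53), which muscle also expresses. Red cell genes were at 1715 to 1821 and 1521 to 1803 CPM, which overlapped. The part of muscle or epithelial RNA in the members that rose was not tested. With those genes kept out of the scaling, 11 members were called, 5 higher and 6 lower. That setting bears on the scaling alone and not on counts that such RNA may add to a member.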

How the data were processed

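Liver RNA of 3 DIO and 5 DIO + DHA mice was compared, grouped from the sample labels. The authors prepared 3′-enriched cDNA with molecular identifiers, aligned the reads to GRCm39 with STAR 2.7.9a and counted them with featureCounts 1.6.0 on exons of GENCODE release 33. The deposited values were whole-number counts per gene, not normalized. No strand or multi-mapping option was set, so reads in stretches shared with an antisense gene or an identical copy were not assigned. Whether molecular identifiers were collapsed is not given in the sources used here, so intervals and floors cover counting error only.

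Genes were left out when, in both groups, over 50% of libraries had fewer than 5 counts, and 12412 genes stayed in. TMM scaling and the quasi-likelihood test of edgeR 4.0.16 in R 4.3.3 were used, with Benjamini-Hochberg adjustment over all genes tested and a threshold of 0.05. The common biological coefficient of variation was 0.0801. Sums and ratios were compared by exact two-sided permutation tests over libraries. The test was checked on artificial counts.

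The median depth was 4495644 counts (range 1723800 to 5690347). Values in every library are given for called members, NRF2, KEAP1 and the NRF2 targets. From other lists, up to 3 called genes per direction are named by size of change, with a mean of at least 1 CPM, as well as Cat and Nnt. Bach1, the small MAF genes, Nox4, Xdh and Gpx4-ps2 were added after their values were seen. The members and lists were chosen with earlier results of these data known. The list of oxidant sources was tested without 1 gene, which is not reported here. Names came from GENCODE release 39.

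Alternatives covered scaling (DESeq2 size factors, library total, TMM without muscle and epithelial genes), the test (DESeq2 1.42.0, limma-voom in limma 3.58.1), the filter, the replicate number as a block and leaving out each library.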

Additional observations from a re-analysis of the deposited data

Results flagged for a closer look

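In Gpx7, a low member of the endoplasmic reticulum, 1 library of the DIO + DHA group lay far from the other 4: replicate 5 was at 6.32 CPM and the others were at 2.14 to 3.35 CPM. Such a gap is met by chance in about 1 of 20 groups of values, and 46 values were examined. The gene had 115 counts in all 8 libraries. Without that library the log2 fold change of Gpx7 was -0.058, beside 0.24 with it, and neither passed the test.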

How the results depend on the processing

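The number of members called was 11, and 5 to 10 when 1 library was left out, with 5 without DIO replicate 4 (1 higher and 4 lower) and 5 without DIO replicate 5 (3 higher and 2 lower), beside 5 higher and 6 lower with all libraries. The DESeq2 Wald test called 7, and limma-voom called 10 at an adjusted p under 0.05 and 1 with B above 0. For DESeq2 and for limma-voom at an adjusted p, the share over all genes is not given here. Whether the members or lists exceed all genes in those settings is thus not shown. For the NRF2 targets the count was also 4 in limma-voom at an adjusted p under 0.05. It became 2 with DESeq2, 1 with B above 0 and 1 to 3 without 1 library, the lowest without DIO replicate 4. For the constitutive genes the count was 6, and DESeq2 called 5. In limma-voom 6 passed an adjusted p under 0.05, 8 had an unadjusted p under 0.05 and 0 met B above 0. Without 1 library the count was 2 to 6. The lowest, without DIO replicate 5, was 2 higher and 0 lower, so none of the 4 lower calls was kept. The other NRF2 pathway genes gave 6 with DESeq2, 5 with B above 0 and 7 to 10 without 1 library, and the other antioxidant genes 5, 3 and 5 to 8. At an adjusted p under 0.05 limma-voom gave 11 and 8 for these lists. Over all genes B above 0 gave 860 calls, and the edgeR fit without DIO replicate 5 called 1432 of 12866. The summed red cell genes differed by -145 CPM (exact permutation p = 0.0893), by -175 CPM with library totals (p = 0.0357, exact) and by -189.9 to -119 CPM without 1 library. Hmox1 kept its direction and its call in every edgeR fit in which it was tested.

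The replicate numbers 1, 4 and 5 did not mark pairs: deviations of same-numbered libraries correlated at -0.013, -0.013 and -0.011. With the replicate number as a block, 7 members were called, 1 higher and 6 lower, and sign changes were seen at Txnip (-0.017), Prdx3 (-0.0024), Prdx6 (-0.0041), Gpx4 (0.0011) and Msra (0.012).

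Some members that were not called changed sign between settings, and of these only Sod1 passed the threshold in any fit. Their log2 fold changes with all libraries ranged from -0.16 (Sod1 and Gpx4) to 0.24 (Gpx7). With library totals Gss was at -0.017 and Prdx6 at -0.0029, and with another filter Gss was at -0.0044. Sod2, at -0.0003, became 0.0004 with DESeq2 size factors, 0.0005 without muscle and epithelial genes, 0.0007 in DESeq2, 0.0009 in limma-voom, 0.0032 with no filter and 0.0017 with at least 10 counts in every library. Without 1 library the ranges were -0.032 to 0.12 for Keap1, -0.038 to 0.12 for Gss, -0.26 to 0.033 for Hmox2, -0.0017 to 0.18 for Aifm2, -0.035 to 0.091 for Txnrd2, -0.027 to 0.14 for Txnip, -0.017 to 0.13 for Prdx3, -0.020 to 0.064 for Prdx6, -0.41 to 0.14 for Gpx4, -0.058 to 0.62 for Gpx7, -0.35 to 0.28 for Sod1, -0.037 to 0.037 for Sod2 and -0.098 to 0.059 for Msra. The cause was not tested. At this depth and with 3 DIO mice, the standard errors of 0.06 to 0.33 limit what could be called among small changes.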

Other observations

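Members can also be grouped by features that cut across their roles. Of the 6 selenoproteins tested, 3 were called: Gpx3 was higher, and Gpx1 and Msrb1 were lower, with a median log2 fold change of -0.14. Over all genes tested the share called was 15.2%. Of the 6 mitochondrial members, 1 was called, Aldh2, which was lower, a share (16.7%) near that over all genes, and the median was 0.04.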
